A study of Mus musculus with 6 samples.

Results

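The Z-disc protein genes described here are 10 genes of the mouse, Actn2, Actn3, Ldb3, Pdlim3, Myoz1, Myoz2, Tcap, Myot, Csrp3 and Des, chosen by symbol from the 43074 gene symbols of a table of RNA sequencing counts. All 10 were in the table and all 10 passed the filter on low counts, among 17433 genes tested. The libraries came from C2C12, an established line of mouse myoblasts that fuse into myotubes when growth serum is replaced, wild type per the labels. The 3 groups had 2 libraries each: untreated cells at day 0, cells kept for 4 days in medium with 5% horse serum and DMSO, the control treatment, and cells kept for 4 days in the same medium with 1 mM 4-phenylbutyric acid (4-PBA), known as a chemical chaperone and an inhibitor of histone deacetylases. All cells had been grown in fetal bovine serum beforehand, and all libraries carried batch number 1. No label states that replicates came from separate cultures, so the p-values measure only the spread between these libraries, which may be technical.

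The Z-disc is the protein plate that borders each sarcomere, the contractile unit of striated muscle. Alpha-actinin crosslinks the thin filaments of neighbouring sarcomeres there, and titin and nebulin reach into it. Around this lattice sit adaptor proteins with PDZ, LIM or immunoglobulin domains and signalling partners such as the calcineurin-binding myozenins, and desmin filaments tie neighbouring Z-discs to each other and to the cell membrane. In differentiating myoblasts, the first Z-bodies rich in alpha-actinin later align into mature Z-discs. Muscle genes of this kind are known to be switched on by MyoD family factors, which bind E-boxes, with MEF2 factors and, for some, serum response factor, which binds the CArG box.

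The DNA upstream of the start sites of these genes, whose changes in level are described below, was examined. RefSeq promoter entries (build GRCm38.p6) matched 6 of the 10 genes, Des, Myoz2, Csrp3, Pdlim3, Actn2 and Ldb3, with 8 start sites between them. In each, the 250 bases before the start site were searched on both strands for the E-box CANNTG, the M-CAT element CATTCC, the MEF2 element and the CArG box, which do not overlap each other in these windows. Windows of 4 genes are printed 5′ to 3′ on the gene's strand, with every match to one of these motifs in capitals: Myoz2, which rose most, Actn2, Ldb3, which differed most clearly with 4-PBA, and Des, which rose least. They lie at chr3:123034988-123035237 (minus strand) for Myoz2, chr13:12340733-12340982 (minus strand) for Actn2, chr14:34588682-34588931 (minus strand) for Ldb3 and chr1:75360042-75360291 (plus strand) for Des.
Myoz2: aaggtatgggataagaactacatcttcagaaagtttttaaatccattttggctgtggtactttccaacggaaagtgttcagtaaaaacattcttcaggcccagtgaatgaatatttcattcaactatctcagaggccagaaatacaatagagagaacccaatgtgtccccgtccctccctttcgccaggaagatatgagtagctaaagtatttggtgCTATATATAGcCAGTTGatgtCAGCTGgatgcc
Actn2: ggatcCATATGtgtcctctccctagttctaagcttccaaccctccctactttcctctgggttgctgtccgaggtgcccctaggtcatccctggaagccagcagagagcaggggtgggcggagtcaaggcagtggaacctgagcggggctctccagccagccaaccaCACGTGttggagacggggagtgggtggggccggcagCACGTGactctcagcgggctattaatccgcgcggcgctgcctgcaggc
Ldb3: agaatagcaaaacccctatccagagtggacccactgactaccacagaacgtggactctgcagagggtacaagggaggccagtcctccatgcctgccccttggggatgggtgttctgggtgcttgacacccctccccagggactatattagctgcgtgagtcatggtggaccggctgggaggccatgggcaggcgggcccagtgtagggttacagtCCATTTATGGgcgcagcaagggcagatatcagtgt
Des: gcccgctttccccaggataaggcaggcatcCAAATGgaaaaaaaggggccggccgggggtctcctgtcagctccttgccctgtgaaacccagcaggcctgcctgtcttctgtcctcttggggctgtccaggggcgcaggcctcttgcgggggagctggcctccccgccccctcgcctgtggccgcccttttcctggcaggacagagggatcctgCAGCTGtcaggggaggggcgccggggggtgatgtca

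The Myoz2 window held the 1 match to the MEF2 element, ctatatatag, whose first base lay 33 bases before the start site. E-boxes beginning 22 and 12 bases before the start site followed it. The MEF2 pattern accepts stretches made mostly of A and T, also those with other roles close to a start site. This match therefore need not be a MEF2 site. Actn2 had 3 E-boxes, 2 of them CACGTG, and Des had 2. Csrp3 had 4 E-boxes before each of its 2 start sites, and Pdlim3 had 2. Neither of the 2 overlapping Ldb3 windows held an E-box, and both held the same CArG box, which begins 35 bases before the start site of the printed window. An E-box was thus in 6 of the 8 windows, against 66.2% of 32851 such windows of all genes. At least 2 E-boxes were in the same 6 windows, against 31.8% of all. The E-box form CAGCTG, a subset of CANNTG, was in 3 windows (Des, Myoz2 and Pdlim3), against 4271 of the 32851. The MEF2 element was in 2.92% and the CArG box in 1.47% of all windows. The M-CAT element CATTCC, which TEAD factors bind, was in the Pdlim3 window alone of the 8, against 12.6% of all. A match is a stretch of letters and not evidence of binding, and binding was not measured here. Whether any match bears on the changes in level was not tested.

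Total counts ranged from 47908926 to 74697397 per library. The 8 myogenic markers summed to 187 and 186 CPM (counts normalised to library size after TMM scaling) at day 0, 5014 and 5348 under DMSO, and 4938 and 5040 under 4-PBA. Myog, the differentiation factor myogenin, stood at 7.94 and 7.85 CPM at day 0 and between 277 and 297 CPM in the day 4 libraries. Markers of adipocytes summed to at most 0.412 CPM in a library, of endothelial cells to at most 2.65 CPM, of osteoblasts to at most 5.64 CPM and of macrophages to at most 13.3 CPM. No marker was at 0 in every library, and Fabp4, an adipocyte marker, was at 0 in all 4 day 4 libraries. In bulk RNA, fewer cells of a type and less RNA per cell cannot be told apart, and this holds for every difference below.

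All 10 genes were higher after 4 days with DMSO than at day 0. Time, medium and treatment changed together between these groups, so their parts cannot be told apart. The rises fell into 2 ranges. Des, Actn3, Pdlim3 and Ldb3 were already at 35.2 CPM or more on average at day 0 and rose 2.51-fold to 4.97-fold. The other 6 genes were under 1 CPM at day 0, and their fitted rises ran from 10.6-fold for Myoz1 to 267-fold for Myoz2. The quasi-likelihood test of edgeR, with p-values adjusted over the whole table by the Benjamini-Hochberg method, called 10 of 10 higher (adjusted p under 0.05), against 33.8% of all tested genes called higher. Both DMSO libraries lay above both day 0 libraries for all 10, against 42.0% of all tested genes. The median log2 fold change of the 10 genes was 3.47, against 0.023 over all tested genes. With Myot, with 3 and 0 counts at day 0, set at the bound that 3 counts per library give, the median was 3.02. Myoz1, Myoz2, Tcap and Myot had at most 10 counts per library at day 0 and passed the filter only through their day 4 libraries. Their direction was thus largely fixed by the filter, and the counts of genes and the medians above include them. Actn2, Actn3, Ldb3, Pdlim3, Csrp3 and Des, which are not affected in this way, were each called higher. Beside these rises, all 8 myogenic markers were called higher and all 8 proliferation markers lower, against 33.8% and 32.6% of all tested genes. The proliferation markers summed to 2137 and 2184 CPM at day 0 and 661 and 566 CPM under DMSO. Among the markers Myh3, the embryonic myosin heavy chain, rose by 6.74 (SE 0.0397) on the log2 scale, and Mki67 fell by 1.56 (SE 0.0619). Of the markers of other cell types, 1 of 4 tested endothelial markers was called higher (Tek) and 2 lower (Pecam1 and Kdr), 1 of 3 osteoblast markers higher (Dmp1) and 1 lower (Phex), and 2 of 3 macrophage markers lower (Csf1r and Cd14). Of these, Cd14 had the highest level, at 12.4 CPM on average at day 0 and 5.88 CPM under DMSO. The part of these marker changes in the result was not tested.

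**Figure D1:**
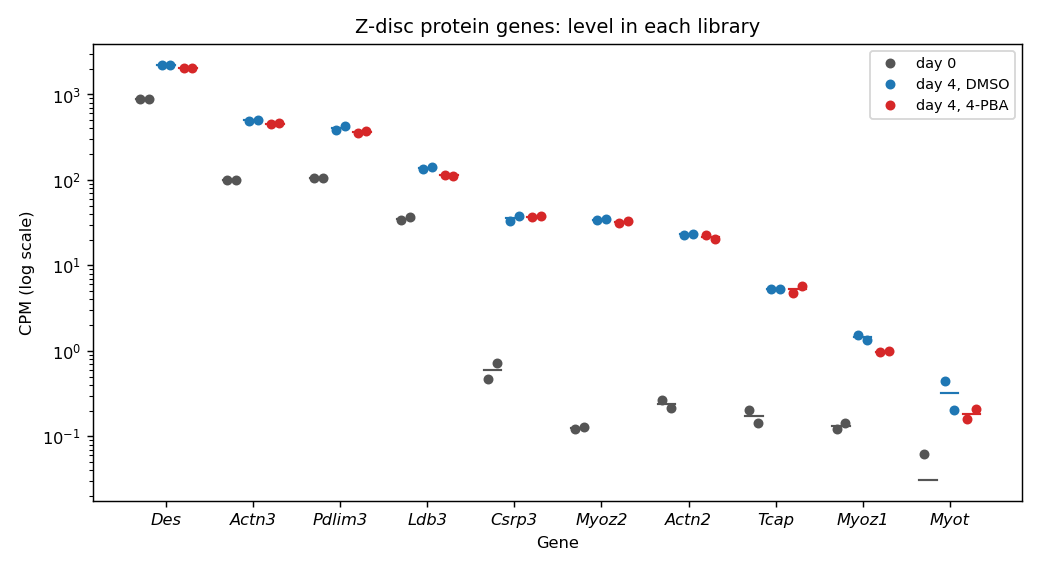
CPM on a log axis for each of the 10 Z-disc genes (x axis, ordered by level with DMSO) in the 6 libraries; dots are libraries, short lines are group means of 2 libraries, and the day 0 library of Myot without counts has no dot. Des, Actn3, Pdlim3 and Ldb3 start above 30 CPM at day 0, the other 6 genes start below 1 CPM, and the day 4 groups lie close together for each gene.

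The alpha-actinins, the crosslinkers of the thin filaments, differed in where they started. Actn3, the fast-fibre isoform, had 99.5 and 101 CPM at day 0 and 488 and 507 CPM under DMSO. It rose by a log2 fold change of 2.31 (SE 0.0320, adjusted p 1.73e-35, edgeR). Actn2, the isoform of all striated muscle, had 0.267 and 0.214 CPM at day 0, from 13 and 15 counts, and 22.9 and 23.6 CPM under DMSO. Its log2 fold change was 6.61 (SE 0.151, adjusted p 4.81e-29), a 97.8-fold rise with a counting interval (95%, exact binomial) of 68.2 to 149 around the ratio of pooled counts, 98.8. The groups were apart for both genes. Per kilobase of transcript, the Actn3 level was 388 and 492 times that of Actn2 in the day 0 libraries, 22.2 and 22.4 times under DMSO, and 20.8 and 23.6 times under 4-PBA. The ratio was therefore lower in the 4 day 4 libraries than in both day 0 libraries, and its day 4 groups overlapped. Since it divides by 13 and 15 counts, its size at day 0 is imprecise.

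Ldb3, also known as cypher or ZASP, and Pdlim3, also known as ALP, are adaptors with a PDZ domain that binds alpha-actinin. Ldb3 had 33.7 and 36.8 CPM at day 0 and 133 and 140.0 CPM under DMSO, a log2 fold change of 1.95 (SE 0.0444). Pdlim3 had 104 and 105 CPM at day 0 and 387 and 423 CPM under DMSO, also a log2 fold change of 1.95 (SE 0.0383). Their rises were of the same size within the errors, with 95% intervals of 3.63-fold to 4.12-fold for Ldb3 and 3.66-fold to 4.09-fold for Pdlim3. The genes make several splice forms, which gene counts do not separate.

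The myozenins, which bind calcineurin, alpha-actinin and filamin, were both near the lower end at day 0 and far apart at day 4. Myoz2, also known as calsarcin-1, had 0.123 and 0.128 CPM at day 0, from 6 and 9 counts, and 33.5 and 34.8 CPM under DMSO. Its log2 fold change of 8.06 (SE 0.146, adjusted p 5.03e-32) was rank 30 from the top among the 17433 tested genes. The ratio of pooled counts was 271, with a counting interval of 164 to 485. The filter largely fixed the direction of both myozenins, so the rank of Myoz2 and the p-values of both are no support for it. Myoz1, also known as calsarcin-2 and typical of fast fibres, had 6 and 10 counts at day 0 and 98 and 99 under DMSO, or 0.133 ± 0.0134 and 1.44 ± 0.155 CPM (SD, n = 2). It rose by a log2 fold change of 3.40 (SE 0.383, adjusted p 9.76e-10, edgeR). Per kilobase of transcript, the Myoz2 level was 0.534 and 0.481 times that of Myoz1 in the day 0 libraries, 11.5 and 13.9 times under DMSO and 17.1 and 17.5 times under 4-PBA. The day 4 order, with Myoz2 above Myoz1, held in every day 4 library. The day 0 order depended on the length used: per kilobase of coding sequence Myoz2 (0.159 ± 0.00424 CPM, SD, n = 2) and Myoz1 (0.150 ± 0.0151) differed by less than their spread, from at most 10 counts per library.

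Tcap (telethonin, which joins the ends of neighbouring titin molecules) had 10 and 10 counts at day 0, or 0.206 and 0.142 CPM, and 5.29 and 5.35 CPM under DMSO. It rose by a log2 fold change of 4.96 (SE 0.249, adjusted p 5.09e-19). Csrp3 (muscle LIM protein) had 0.473 and 0.726 CPM at day 0 and 33.4 and 37.9 CPM under DMSO, and rose by 5.84 (SE 0.121, adjusted p 4.96e-29). Both were higher in both day 4 libraries by more than any difference between replicates. Myot (myotilin, an actin-bundling protein with immunoglobulin domains) was the scarcest of the genes, with 3 and 0 counts at day 0, 28 and 15 under DMSO and 10 and 13 under 4-PBA. The ratio of its pooled counts between DMSO and day 0 was 12.4 with a counting interval of 3.97 to 62.5, and edgeR called it higher (adjusted p 9.13e-04). The size of this rise is therefore known only roughly. The filter largely fixed the direction of Tcap and Myot, so their p-values are no support for it.

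Des, the muscle intermediate filament protein desmin, was the most abundant of the 10 genes and rose least. It had 877 and 885 CPM at day 0 and 2226 and 2198 CPM under DMSO, a log2 fold change of 1.33 (SE 0.0263, adjusted p 6.97e-31). A gene on the opposite strand, Gm15179, overlaps its exons in GENCODE M21, and whether counting used strand is not given in the sources used here.

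**Figure D2:**
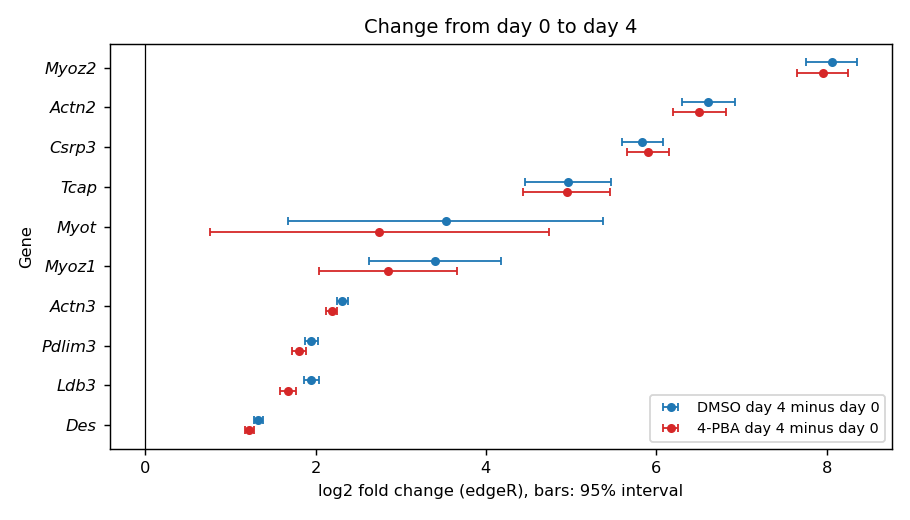
Log2 fold change from day 0 to day 4 (x axis) of the 10 Z-disc genes (y axis) with DMSO (blue) and with 4-PBA (red); dots are edgeR estimates and bars their 95% intervals, and both comparisons use the same day 0 libraries. All 20 estimates lie above 0, from 1.22 for Des with 4-PBA to 8.06 for Myoz2 under DMSO, and Myot and Myoz1 have the widest intervals.

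Levels were compared between genes as CPM per kilobase of the longest transcript in GENCODE M21. With DMSO the order was Des (731 ± 6.48, SD, n = 2), Actn3 (172 ± 4.66), Pdlim3 (115 ± 7.22), Ldb3 (26.7 ± 0.897), Csrp3 (14.6 ± 1.30), Myoz2 (14.2 ± 0.364), Actn2 (7.72 ± 0.158), Tcap (5.61 ± 0.0436), Myoz1 (1.12 ± 0.120) and Myot (0.146 ± 0.0773). Csrp3 and Myoz2 differed by less than their spread. With 4-PBA the order was the same. At day 0 Des (291 ± 1.88), Actn3 (34.7 ± 0.303), Pdlim3 (29.6 ± 0.135) and Ldb3 (6.89 ± 0.427) led as well, and Csrp3 (0.247 ± 0.0736) and Tcap (0.184 ± 0.0472) did not differ beyond their spread. Myoz1 (0.103 ± 0.0104), Actn2 (0.0798 ± 0.0126), Myoz2 (0.0522 ± 0.00139) and Myot (0.0140 ± 0.0198) followed, each from at most 15 counts per library. Per kilobase of coding sequence instead, Pdlim3 stood above Actn3 in each group, Tcap stood above Actn2 at day 4, Myoz2 above Myoz1 and Actn2 at day 0, and Csrp3 (63.9 ± 1.54) above Ldb3 (52.1 ± 1.73) with 4-PBA, so these orders depended on the length used. Des made up 80.3% and 80.1% of the summed level per kilobase of transcript of the 10 genes at day 0, 67.9% and 66.4% under DMSO, and 67.7% and 67.3% under 4-PBA. The share of Actn3 was 9.55% and 9.57% at day 0, 15.6% and 16.1% under DMSO and 15.8% and 15.8% under 4-PBA. In both shares the day 4 groups overlapped and stood apart from day 0.

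Between 4-PBA and DMSO at day 4, 4 of the 10 genes were called lower with 4-PBA and none was called higher. The estimates of 9 of the 10 were negative, against 8607 of all 17433 tested genes. Ldb3 was 17.3% lower, Pdlim3 9.50%, Actn3 8.18% and Des 7.22%. These 4 are the genes with the highest level per kilobase of transcript at day 4; per kilobase of coding sequence, Csrp3 stood above Ldb3 with 4-PBA. The call rate of 4 of 10 stands against 2.78% of all tested genes called lower, and the median log2 fold change of the 10 genes was -0.12, against 0.0021 over all tested genes. Both 4-PBA libraries lay below both DMSO libraries for 7 of the 10, against 22.5% of all tested genes, and above them for none, against 23.0%. The call depended on single libraries for 3 of these 4 genes: without 4-PBA replicate 1 Ldb3 was the 1 gene still called. Without DMSO replicate 2 the calls were Ldb3 and Des, and without 4-PBA replicate 2 they were Ldb3 and Pdlim3. All 4 were called by edgeR without either day 0 replicate or DMSO replicate 1, and by the DESeq2 Wald test and limma-voom.

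Ldb3 had 133 and 140.0 CPM under DMSO and 116 and 110.4 CPM under 4-PBA. The groups were apart, with means of 137 ± 4.59 and 113 ± 3.76 CPM (SD, n = 2). The log2 fold change was -0.27 (SE 0.0407, adjusted p 4.29e-05, edgeR), and it lay between -0.31 and -0.24 without any 1 library, and the gene had rank 57 by p-value among all tested genes. Pdlim3, the other PDZ-LIM adaptor, had 387 and 423 CPM under DMSO and 357 and 376 CPM under 4-PBA. Its groups were apart by less than its DMSO replicates differed, and its log2 fold change was -0.14 (SE 0.0362, adjusted p 0.0179). Without DMSO replicate 2 it was -0.077 (adjusted p 0.182), and without 4-PBA replicate 1 it was -0.11 (adjusted p 0.332). The level of Pdlim3 relative to Ldb3, per kilobase of transcript, was 4.20 and 4.38 under DMSO, 4.46 and 4.93 under 4-PBA, and 4.48 and 4.13 at day 0. It was higher in both 4-PBA libraries than in both DMSO libraries, but with 2 libraries against 2 an exact permutation test cannot give a p below 0.333.

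Actn3 had 488 and 507 CPM under DMSO and 454 and 460.5 CPM under 4-PBA, a log2 fold change of -0.12 (SE 0.0298, adjusted p 0.00962, edgeR). Without DMSO replicate 2 its adjusted p was 0.0545, and without 4-PBA replicate 1 or 2 it was 0.207 or 0.110. Des had 2226 and 2198 CPM under DMSO and 2044 and 2061 CPM under 4-PBA, a log2 fold change of -0.11 (SE 0.0258, adjusted p 0.00881). Without 4-PBA replicate 1 or 2 the adjusted p was 0.242 or 0.172, while its log2 fold change stayed between -0.12 and -0.10 without any 1 library. For both genes the groups were apart in all libraries.

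The other 6 genes were not called between 4-PBA and DMSO. Actn2 had 22.9 and 23.6 CPM under DMSO and 22.8 and 20.4 CPM under 4-PBA, a log2 fold change of -0.11 with a 95% interval of -0.26 to 0.046 (adjusted p 0.533). Myoz2 had 33.5 and 34.8 CPM under DMSO and 31.0 and 32.7 CPM under 4-PBA, -0.10 with an interval of -0.23 to 0.026 (adjusted p 0.445). These intervals hold both 0 and the estimates of Des, Actn3 and Pdlim3, so a difference of that size was not detectable for Actn2 and Myoz2 here, nor was its absence shown. Myoz1 had 1.55 and 1.33 CPM under DMSO and 0.966 and 0.998 CPM under 4-PBA. Its groups were apart, and its log2 fold change was -0.55 with an interval of -1.13 to 0.022 (adjusted p 0.326). Tcap (-0.015, interval -0.31 to 0.28, adjusted p 0.977), Csrp3 (0.060, interval -0.076 to 0.20, adjusted p 0.744) and Myot (-0.78, interval -2.09 to 0.53, adjusted p 0.616) had overlapping groups. Csrp3 was the 1 gene of the 10 with a positive estimate, at 33.4 and 37.9 CPM under DMSO and 36.6 and 37.8 CPM under 4-PBA, and it was -0.027 without DMSO replicate 1.

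**Figure D3:**
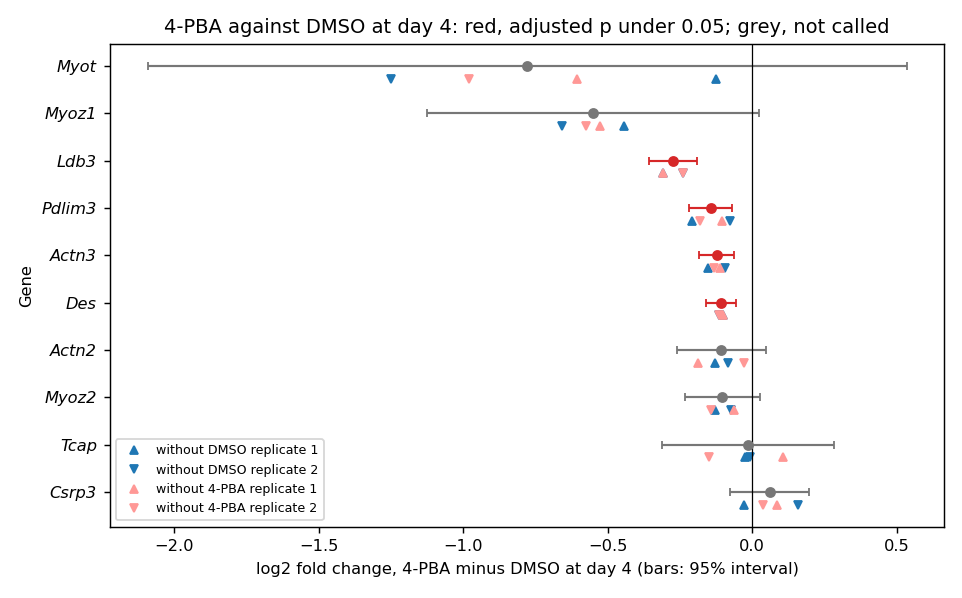
Log2 fold change between 4-PBA and DMSO at day 4 (x axis) for the 10 Z-disc genes (y axis), with edgeR estimates as dots and 95% intervals as bars (red, adjusted p under 0.05; grey, not called); triangles below each dot give the estimate without 1 of the 4 day 4 libraries. The 4 red estimates run from -0.27 for Ldb3 to -0.11 for Des and keep their sign without any 1 library, while the triangles of Tcap and Csrp3 fall on both sides of 0.

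Markers moved beside these differences. The summed level of the 8 myogenic markers was 5014 and 5348 CPM under DMSO and 4938 and 5040 CPM under 4-PBA, overlapping groups. In this list 3 of 8 genes, Mymk, Mymx and Acta1, were called lower with 4-PBA and none higher, against 2.78% of all tested genes called lower. Myog (log2 fold change 0.0052, adjusted p 0.972, edgeR) and Myh3 (0.018, adjusted p 0.838) were not called. The summed level of the 8 proliferation markers was 661 and 566 CPM under DMSO and 703 and 712 CPM under 4-PBA, and 2137 and 2184 CPM at day 0. There 2 of 8 genes, Pcna and Ccna2, were called higher and none lower, against 2.13% of all tested genes called higher. For this list 8 of 8 estimates were positive, against 8821 of the 17433 tested genes, and that of Mki67 was 0.19 (adjusted p 0.163, edgeR). The DMSO libraries were themselves unequal in the sum of this list, at 661 and 566 CPM. Markers of the non-muscle cell types gave no calls between 4-PBA and DMSO, with none of the 5 adipocyte markers above the filter. With 4.90% of all tested genes called in either direction, the lack of calls among so few markers says little. The part of these marker differences in the result for the Z-disc genes was not tested.

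Between 4-PBA at day 4 and day 0, all 10 genes were higher as well, against 33.2% of all tested genes called higher, with both 4-PBA libraries above both day 0 libraries for all 10 (41.7% of all tested genes). This comparison shares its day 0 libraries with that of DMSO, and the day 4 libraries differ. Here too time, medium and treatment changed together. The fold change was 248 for Myoz2, 90.8 for Actn2, 59.6 for Csrp3, 30.9 for Tcap and 7.22 for Myoz1. It was 4.57 for Actn3, 3.50 for Pdlim3, 3.20 for Ldb3 and 2.33 for Des, each called by edgeR with an adjusted p of 2.76e-23 or less. For Ldb3 the log2 fold change was 1.68 with an interval of 1.59 to 1.77, beside 1.95 with an interval of 1.86 to 2.04 in the DMSO comparison. The call of Myot (log2 fold change 2.75, adjusted p 0.0140) was lost without day 0 replicate 2 (adjusted p 0.217) and without 4-PBA replicate 2 (0.0710). The ratio of its pooled counts was 7.33 with a counting interval of 2.22 to 38.2. The median log2 fold change of the 10 genes was 2.80, and 2.52 with Myot at its bound, against 0.018 over all tested genes. Here too the direction of Myoz1, Myoz2, Tcap and Myot was largely fixed by the filter, which they passed only through day 4 libraries.

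A further list of 36 genes encodes other proteins of the Z-disc and its borders, of which 35 were tested; Myoz3, the third myozenin, had at most 0.161 CPM in a library and was not. Of the 35, edgeR called 26 higher and 5 lower with DMSO than at day 0, against 33.8% and 32.6% of all tested genes, with a median log2 fold change of 0.94. The largest changes among those with at least 5 CPM were rises in Ankrd2 (7.16, SE 0.242), Smpx (6.13, SE 0.135), Neb (6.08, SE 0.0491), Synpo2l (3.82, SE 0.0396), Ttn (3.65, SE 0.0295) and Nrap (3.22, SE 0.0600). Ankrd2 is a titin-binding ankyrin repeat protein, nebulin (Neb) and titin (Ttn) are the giant filament proteins anchored at the Z-disc, and Nrap is a nebulin-related protein of early myofibrils. The PDZ-LIM relatives of Ldb3 and Pdlim3 rose less than either: all 5 (Pdlim1, Pdlim2, Pdlim4, Pdlim5 and Pdlim7) were called higher, with a median of 0.61. The non-muscle alpha-actinins, Actn1 and Actn4, were called in opposite directions (0.29, SE 0.0318, and -0.15, SE 0.0290). Of the 5 genes of intermediate filaments and their linkers in the list, 3 were called higher as Des was, Nes (1.08, SE 0.0273), Sync (1.38, SE 0.0366) and Synm (1.32, SE 0.471). Synm was scarce, with 8 and 18 counts at day 0 and 30 and 45 under DMSO, so the size of its rise is known only roughly. Plec was not called (0.0016, SE 0.0284). Vim, the filament protein of undifferentiated cells, fell by 1.13 (SE 0.0273), from 7218 to 3298 CPM.

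Between 4-PBA and DMSO, 6 of the 35 were called lower and 2 higher, against 2.78% and 2.13% of all tested genes (8 called in all, against 4.90%), with a median of -0.030. In the group of filamin and its partners 3 of 5 were called lower, Synpo2 (log2 fold change -0.30, SE 0.0405), Synpo2l (-0.20, SE 0.0327) and Xirp1 (-0.15, SE 0.0391). All 3 are actin-associated proteins of the Z-disc or the cell junction. Ttn stood at 2614 and 2691 CPM under DMSO and 2176 and 2207 CPM under 4-PBA (-0.28, SE 0.0263, adjusted p 1.28e-08, edgeR), and Neb at 456 and 489 against 359 and 364 CPM (-0.39, SE 0.0346, adjusted p 1.94e-08). Nrap was also lower (-0.24, SE 0.0486, adjusted p 0.00170). The LIM proteins Csrp1, at 396 and 370.1 CPM under DMSO and 449 and 427 CPM under 4-PBA (0.19, SE 0.0328, adjusted p 2.54e-04), and Csrp2 (0.19, SE 0.0521, adjusted p 0.0370) were higher. These are relatives of Csrp3, and Csrp3 itself was not called. None of the 5 PDZ-LIM relatives was called, with estimates between -0.035 and 0.060, while Ldb3 and Pdlim3 were; the difference between the genes was not tested. Leaving out 1 library gave 5 to 10 called genes. Without 4-PBA replicate 1 Xirp1, Nrap and Csrp2 were not called, and Csrp2 was not called without DMSO replicate 2 or 4-PBA replicate 2 either. Genes on the opposite strand overlap exons of Ttn, Neb and Nrap in GENCODE M21, which makes their values less certain.

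**Figure D4:**
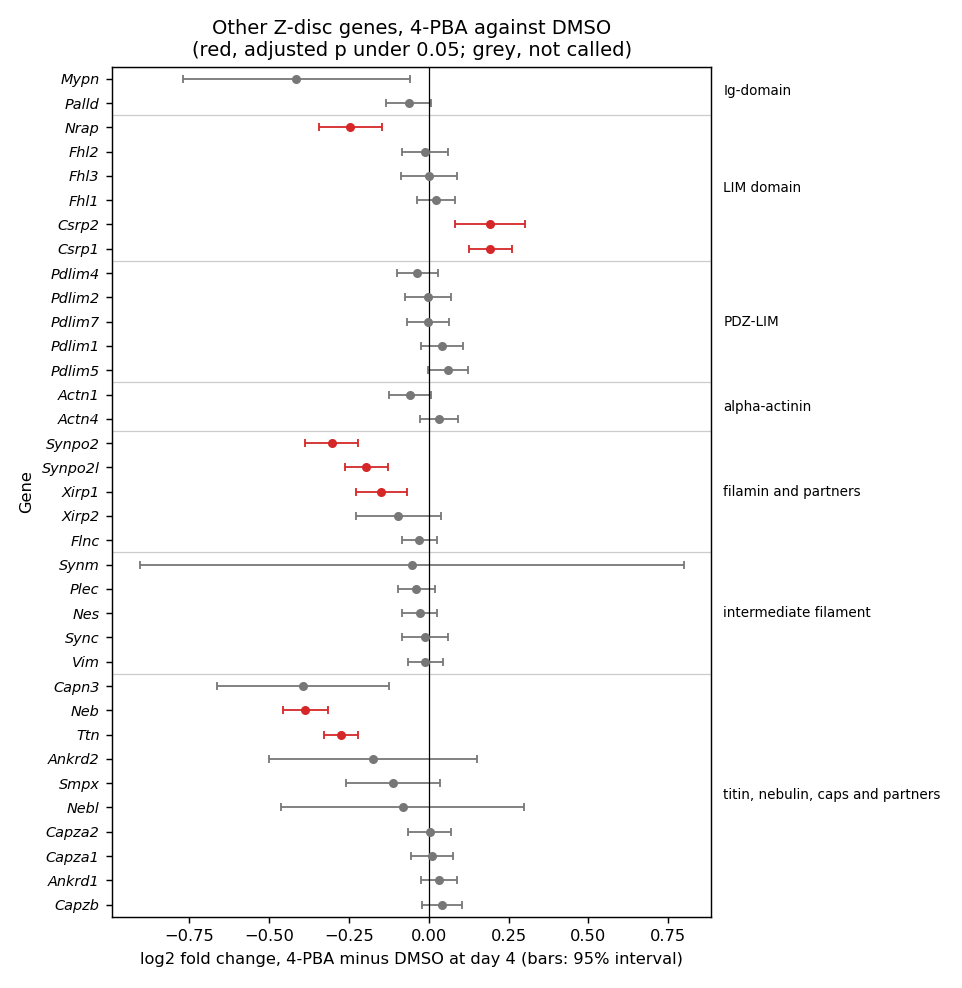
Log2 fold change between 4-PBA and DMSO at day 4 (x axis) for the 35 tested genes of the further Z-disc list (y axis), grouped by role; dots are edgeR estimates, bars their 95% intervals, red marks an adjusted p under 0.05. The 8 called genes are Neb, Ttn, Synpo2, Synpo2l, Nrap and Xirp1 on the lower side and Csrp1 and Csrp2 on the higher side.

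For each of the 10 genes, the genes with the most similar course over the 6 libraries were found by the root-mean-square difference of centred log2 CPM, among tested genes with at least 5 CPM in their highest group. Nearest to Actn3 were Tmod1, which encodes a thin-filament capping protein (0.023 log2 units), Cdh23 (0.033) and Pclo (0.035). For Des they were Hspg2, Scd1 and Sntb1 (0.019, 0.019 and 0.022), for Pdlim3 Cdkn1a, Gm56626 and Dlgap4 (0.028, 0.035 and 0.045), and for Ldb3 Eda2r, Itgb6 and Bhlhe40 (0.058, 0.058 and 0.067). Distances were larger for the genes that were under 1 CPM at day 0. Csrp3 had Hrc, Tnni1 and C1qtnf3 (0.12, 0.13 and 0.15), Actn2 had Art1, 5430431A17Rik and Casq2 (0.10, 0.11 and 0.13), and Tcap had Myom1, Camk2a and Mymk (0.13, 0.13 and 0.14). Hrc and Casq2 encode calcium-binding proteins of the sarcoplasmic reticulum and Myom1 the M-band protein myomesin. Myoz2 had no gene nearer than 0.25 (Dhrs7c, then Casq1 and Scn4a), and Myoz1 none nearer than 0.15 (Dscam, then Dclk1 and Dlg2). Myot, the scarcest, had Mylk4 at 0.45, Igfn1 at 0.46 and 5730419F03Rik at 0.49. With 6 libraries in 3 groups these distances describe the courses and carry no test.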

How the data were processed

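The deposited values are raw counts per gene symbol, 1 column per library and not pooled, per the file headers. Libraries were made from 100 ng of DNase-treated total RNA with a directional kit, per the labels. The build was GRCm39, per the submitters' processing notes; aligner, counting tool, annotation and strand setting are not given in the sources used here. edgeR 4.0.16 in R 4.3.3 was used: filterByExpr (minimum count 10), TMM scaling, 1 mean per group over all 6 libraries, robust quasi-likelihood fit, and Benjamini-Hochberg adjustment over 17433 genes, called under 0.05. Standard errors are the log2 fold change divided by the square root of F. The design left 3 residual degrees of freedom, beside a median of 30.4 prior degrees of freedom drawn from the spread of all tested genes. The p-values thus rest largely on spread shared between genes. The common coefficient of variation was 3.74%, and replicates differed beyond sampling noise (chi-square per degree of freedom 3.98 to 7.15). Counting intervals (95%) cover counting error only. The scripts were tested on simulated data. Alternatives used DESeq2 1.42.0, limma 3.58.1 and other settings named below. Lengths and overlaps came from GENCODE M21. Figures used Python 3.11.15 and matplotlib 3.10.9.

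Named were all 10 genes; of the further list, those called between 4-PBA and DMSO (at most 10) and the 6 largest changes with DMSO at 5 CPM or more; Myog, Myh3 and Mki67; and each gene's 3 nearest genes (log2 CPM, prior count 2). Other markers and other members of subgroups were named after their values were seen. The genes and lists were chosen with earlier results of these data known.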

Additional observations from a re-analysis of the deposited data

How the results depend on the processing

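For single genes of the 10, 377 of 388 alternative values kept their direction and their side of the threshold. The exceptions all came from leaving out 1 library. These were 9 lost calls, given above (7 between 4-PBA and DMSO, and 2 of Myot between 4-PBA and day 0), and 2 reversals between 4-PBA and DMSO. There the estimate of Csrp3 ran from -0.027 without DMSO replicate 1 to 0.16 without DMSO replicate 2, and that of Tcap from -0.15 without 4-PBA replicate 2 to 0.11 without 4-PBA replicate 1. Neither gene was called between 4-PBA and DMSO at any setting. With 1 library left out, 1 to 4 of the 10 genes, 5 to 10 genes of the further list and 295 to 1194 of all genes were called between 4-PBA and DMSO. In such fits the lone library is assumed to vary like the other groups. The median log2 fold change of the 10 genes ran from 2.93 to 4.26 for DMSO against day 0 and from 2.59 to 3.98 for 4-PBA against day 0, and was 3.55 and 2.96 with limma-voom; it lies between scarce genes, Myot and Myoz1. An adjusted p under 0.01 left 424 of the 855 genes called between 4-PBA and DMSO, and 3 of the 4 Z-disc genes. Scaling by library size only called 461 genes higher and 435 lower, beside 371 and 484 with TMM. With the replicate number as a block, 10, 4 and 10 of the 10 genes were called in DMSO against day 0, 4-PBA against DMSO and 4-PBA against day 0, and 768 of all genes between 4-PBA and DMSO. Same-numbered libraries did not deviate together (correlations of -0.028, -0.0031 and -0.012). These correlations weigh all tested genes alike, also scarce ones with much counting noise, so they cannot exclude a shared culture or preparation. DESeq2 gave no adjusted p for Myoz1 and Myot between 4-PBA and DMSO. A coding length from RefSeq proteins was not run; one from GENCODE M21 was chosen after seeing the data and changed the orders stated above: Pdlim3 above Actn3 in each group, Tcap above Actn2 at day 4, Csrp3 above Ldb3 with 4-PBA, and Myoz2 above Myoz1 and Actn2 at day 0. Depth limits Myot, Myoz1, Tcap, Myoz2 and Actn2 at day 0.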
